A study of Mus musculus with 16 samples.

Results

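Osteoclasts are the multinucleated cells that resorb bone, and 9 genes of their resorption enzymes and identity were followed here in mouse femur: Ctsk, Acp5, Mmp9, Calcr, Oscar, Itgb3, Itgav, Src and Mitf. All probe sets that the array annotation assigned to 1 of these symbols alone were taken, which gave 18 of the 45037 non-control probe sets, for 9 of the 18193 genes that a probe set named alone. Of these 18, 16 lay above a filter that left out the 30% of probe sets with the lowest mean log2 value, and the 2 under it were both for Itgav. The RNA came from the distal 5 mm of 1 femur, the left, of each of 16 female C57BL/6 mice that had been ovariectomized (OVX), and each mouse had an Affymetrix array of its own. Mice lacking estrogen receptor alpha in osteoclasts received estrogen (ERaKO-E2-4hr) or were the ovariectomized knockout controls (ERaKO-OVX), and wild-type mice received estrogen (WT-E2-4hr) or vehicle (WT-OVX). Bone was taken 4 hours after treatment and each group held 4 mice. The labels of the ERaKO-OVX mice name no vehicle, which comes from the series design. The sources used here give neither the Cre driver, nor the estrogen compound and dose, nor the ages. Osteoclast-specific deletions are widely made with a Cre placed in the Ctsk locus, which is given as background and is not stated for these mice. Estrogen was given 4 hours before harvest, and the question the design poses for these genes is whether bone taken then differs in osteoclast gene expression, and whether the receptor in osteoclasts matters for it.

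An osteoclast attaches to bone through the integrin alpha v beta 3, the product of Itgav and Itgb3, and the kinase Src carries the integrin signal to the actin ring that seals the resorption space. Into that acid space the cell secretes cathepsin K (Ctsk), the main protease of bone collagen, tartrate-resistant acid phosphatase (Acp5) and the gelatinase Mmp9. The transcription factor Mitf acts with PU.1 and NFATc1 to switch on such genes, Oscar is a receptor that costimulates osteoclast differentiation, and the calcitonin receptor (Calcr) marks the mature cell and mediates the block of resorption by calcitonin. In whole bone, fewer osteoclasts and less RNA per osteoclast cannot be told apart. Itgav, Src, Mitf and Mmp9 are also made by other cells of bone and marrow, Mmp9 by neutrophils among them, and Itgb3 by megakaryocytes.

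Between the mice numbered 1 and 2 and those numbered 3 and 4 in every group, an earlier analysis of these arrays had seen a wide difference in skeletal muscle genes, so each value below is given by replicate number. The labels do not say what the numbers stand for. The summed signal of 20 skeletal muscle genes was 7163 to 48137 in replicates 3 and 4, against 109750 to 876378 in replicates 1 and 2. By group it ran from 7163 to 876378 in ERaKO-E2-4hr, 12018 to 193183 in ERaKO-OVX, 13003 to 252709 in WT-E2-4hr and 25382 to 642290 in WT-OVX. Every array had a 2% trimmed mean of 500, and the medians ran from 153 to 217 in replicates 3 and 4, against 155 to 196 in replicates 1 and 2. ERaKO-E2-4hr replicate 1, WT-E2-4hr replicate 2 and WT-OVX replicate 2 stood apart in technical controls: their spike-in medians were 11606, 13354 and 22958, against 2680 to 4888 on the other arrays. Their Actb ratios of 3′ over 5′ signal, which rise as RNA degrades or is copied in part, were 2.07, 2.44 and 3.53, against 1.17 to 1.50. The same ratios for Gapdh were 1.36, 2.58 and 2.46, against 1.04 to 1.51, so ERaKO-E2-4hr replicate 1 did not stand apart by Gapdh. Esr1, the targeted gene, had signals of 540 ± 149 in ERaKO-E2-4hr, 637 ± 61 in ERaKO-OVX, 507 ± 106 in WT-E2-4hr and 945 ± 138 in WT-OVX (mean ± SD, n = 4 each). Other bone cells keep the receptor, and a probe set may lie outside the deleted exons, so these signals do not check the deletion.

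The promoters of Ctsk, Acp5 and Oscar are shown because these genes were called higher in replicates 3 and 4 and are known targets of Mitf and PU.1. Calcr was called higher too, and its windows, which are not printed, held no match to the capitalized motifs. The windows are the 250 bases before an annotated start, from RefSeq on GRCm38.p6, and the deposited signals carry no build. Of the 9 genes, 7 matched the promoter table, with 12 windows among them. Capitals mark matches, on either strand, to CATGTG (an E-box that Mitf binds), CACGTG (the palindromic E-box), TGANTCA (the AP-1 motif) and GAGGAA (a core of PU.1 sites).
Ctsk, chr3:95498960-95499209, plus strand: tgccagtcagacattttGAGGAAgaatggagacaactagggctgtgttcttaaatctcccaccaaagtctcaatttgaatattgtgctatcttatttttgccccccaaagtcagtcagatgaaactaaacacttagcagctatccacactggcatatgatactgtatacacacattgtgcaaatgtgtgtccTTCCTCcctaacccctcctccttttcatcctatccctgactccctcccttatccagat
Acp5, the most downstream of 3 starts with a window, chr9:22130599-22130848, minus strand: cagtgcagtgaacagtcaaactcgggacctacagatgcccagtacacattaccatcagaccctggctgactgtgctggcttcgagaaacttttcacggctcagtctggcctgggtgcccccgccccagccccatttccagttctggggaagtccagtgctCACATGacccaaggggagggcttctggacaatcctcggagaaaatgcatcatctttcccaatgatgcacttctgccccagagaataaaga
Oscar, chr7:3616158-3616407, minus strand: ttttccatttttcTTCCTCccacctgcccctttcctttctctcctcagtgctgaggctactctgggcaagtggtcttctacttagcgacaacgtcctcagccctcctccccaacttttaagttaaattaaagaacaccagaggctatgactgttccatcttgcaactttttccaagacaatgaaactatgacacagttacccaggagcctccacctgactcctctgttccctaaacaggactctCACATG
The Ctsk window held GAGGAA at 233 and, on the opposite strand, at 58 bases before the start. The Acp5 window shown held CATGTG on the opposite strand at 90 bases before the start. The other Acp5 windows, which are not printed, held no match to the capitalized motifs. Oscar held CATGTG on the opposite strand at 6 bases and GAGGAA on the opposite strand at 237 bases before the start. CATGTG was in 2 of the 12 windows, against 12.25% of 32851 windows of the same length, and GAGGAA was in 4 of 12, against 23.25%. CACGTG and TGANTCA were in 0 of 12, against 6.021% and 6.749%, and GGAAAN, the core of NFAT sites, which is not capitalized, was in 7 of 12, against 55.5%. A match to these letters is a description of the window and was tied to no value on the arrays.

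Ctsk, the collagen protease, overlapped between the groups and passed the threshold in none of the estrogen and genotype comparisons. The gene runs from 95499210 to 95509387 on chromosome 3 (here and below, RefSeq gene bounds on GRCm38.p6). For replicates 3, 4, 1 and 2 in that order, its signal was 13852, 12228, 4110 and 8327 in ERaKO-E2-4hr, 11047, 8986, 4614 and 5115 in ERaKO-OVX, 11500, 7226, 5738 and 3295 in WT-E2-4hr, and 12379, 10884, 5683 and 5971 in WT-OVX. The 4 groups overlapped, and in each of them both mice numbered 3 and 4 were above both mice numbered 1 and 2. On the log2(signal + 16) scale, estrogen minus vehicle was 0.33 ± 0.42 in the knockout and −0.38 ± 0.42 in wild type (± SE), and the difference between these responses was 0.71 ± 0.60 (limma, 95% interval −0.56 to 1.98, adjusted p = 0.895). That spread includes the difference between replicate sets. With the set as a term the difference between the responses was the same 0.71 with an SE of 0.30, a 95% interval of 0.08 to 1.34 and an unadjusted limma p of 0.0288, and it did not pass over all probe sets (limma adjusted p = 0.496). Knockout minus wild type after estrogen was then 0.47 (95% interval 0.03 to 0.91, limma adjusted p = 0.621). The difference between the Ctsk responses was 0.73 in replicates 3 and 4 alone and 0.69 in replicates 1 and 2 alone.

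Acp5 and Mmp9, the secreted phosphatase and gelatinase, likewise overlapped between all groups. In the same replicate order, Acp5 (chromosome 9, 22126727 to 22135746) had signals of 20254, 17898, 5529 and 11358 in ERaKO-E2-4hr, 16487, 15032, 12351 and 9173 in ERaKO-OVX, 19408, 14605, 12019 and 8301 in WT-E2-4hr, and 18431, 18634, 10403 and 11110 in WT-OVX. As for Ctsk, both mice numbered 3 and 4 were above both numbered 1 and 2 in each group. Estrogen minus vehicle for Acp5 was −0.08 ± 0.36 in the knockout and −0.12 ± 0.36 in wild type, with a difference between the responses of 0.05 (95% interval −1.04 to 1.13). Mmp9 (chromosome 2, 164940326 to 164955850) had 2 probe sets, and the one of higher mean, 1416298_at, gave 21850, 17744, 8332 and 15706 in ERaKO-E2-4hr, 19558, 19531, 17613 and 13997 in ERaKO-OVX, 18740, 14677, 15771 and 21312 in WT-E2-4hr, and 17806, 19767, 12749 and 13155 in WT-OVX. Its lowest array was ERaKO-E2-4hr replicate 1, and WT-E2-4hr was the group in which replicates 3 and 4 were not both above replicates 1 and 2. The Mmp9 response to estrogen was −0.22 ± 0.25 in the knockout and 0.16 ± 0.25 in wild type, and the difference, −0.38, came to 0.19 in replicates 3 and 4 alone but −0.96 in replicates 1 and 2 alone. For its other probe set, 1448291_at, the difference between the responses was −0.71 ± 0.49, with 0.21 in replicates 3 and 4 alone and −1.62 in replicates 1 and 2 alone. At this probe set ERaKO-E2-4hr replicate 1, an array of high spike-in signal, had 4265 beside 9964, 13037 and 15645 on the other arrays of its group. Without that array the differences were −0.32 at 1448291_at and −0.10 at 1416298_at.

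The receptors Oscar and Calcr had lower signals and a wide spread. Oscar (chromosome 7, 3609813 to 3616157), at probe set 1451710_at, had 810, 724, 213 and 431 in ERaKO-E2-4hr, 704, 654, 326 and 273 in ERaKO-OVX, 686, 611, 353 and 403 in WT-E2-4hr, and 717, 673, 322 and 108 in WT-OVX. Within replicates 3 and 4 the 8 arrays lay between 611 and 810. In this narrow band both ERaKO-E2-4hr arrays, 810 and 724, were the highest, just above 717 in WT-OVX, and the other groups were mixed. Oscar's response to estrogen was 0.10 ± 0.51 in the knockout and 0.42 ± 0.51 in wild type, and its other probe set, 1425442_at, gave 0.04 ± 0.45 in the knockout and −0.13 ± 0.45 in wild type. Calcr (chromosome 6, 3685678 to 3764713) had 352, 421, 129 and 158 in ERaKO-E2-4hr, 272, 175, 69.1 and 154 in ERaKO-OVX, 907, 421, 193 and 116 in WT-E2-4hr, and 215, 255, 180 and 136 in WT-OVX. WT-E2-4hr replicate 3, at 907, was the highest of the 16 arrays. Calcr was higher after estrogen by 0.59 ± 0.52 in the knockout and by 0.64 ± 0.52 in wild type, and neither passed (limma adjusted p = 1.00 and 0.881). Replicates 3 and 4 alone gave Calcr differences of 0.77 in the knockout and 1.35 in wild type, and replicates 1 and 2 alone gave 0.40 in the knockout and −0.06 in wild type. Without 1 array the wild-type value ran between 0.14 and 1.08.

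**Figure D1:**
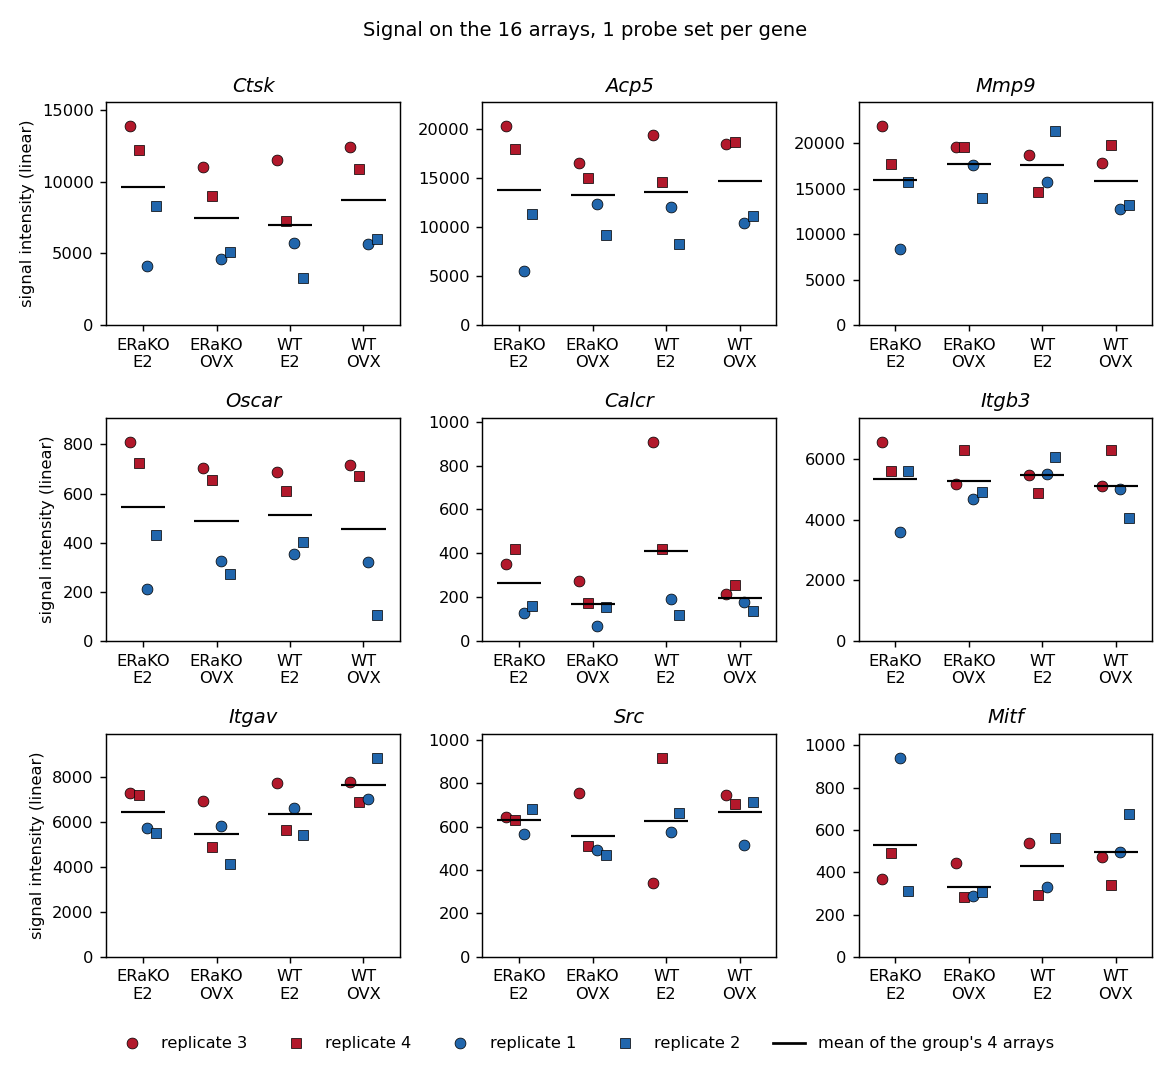
Linear signal intensity (vertical axes, each from 0) of 9 osteoclast genes on 16 arrays, with the probe set of highest mean for each gene. Points are mice, red for replicates 3 and 4 and blue for replicates 1 and 2, and bars are group means over 4 arrays. For Ctsk, Acp5, Oscar and Calcr both red points lie above both blue points in every group, while the 4 groups overlap for all 9 genes.

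Each integrin subunit had 1 probe set of high signal, with 4 low ones besides for Itgav and 1 for Itgb3. Itgav (chromosome 2, 83722303 to 83806917), at 1452784_at, had 7304, 7222, 5737 and 5489 in ERaKO-E2-4hr, 6939, 4891, 5828 and 4148 in ERaKO-OVX, 7752, 5631, 6606 and 5403 in WT-E2-4hr, and 7791, 6905, 7024 and 8857 in WT-OVX. Only the highest ERaKO-OVX mouse, at 6939, exceeded the lowest WT-OVX mouse, at 6905. Under vehicle the knockout minus wild-type difference was −0.51 ± 0.18, and it did not pass over all probe sets (limma adjusted p = 0.985). Its unadjusted limma p of 0.0117 was the smallest of the 16 probe sets in the estrogen and genotype comparisons. Replicates 3 and 4 alone gave −0.33 and replicates 1 and 2 alone −0.68, and without 1 array it ran between −0.63 and −0.38. The Itgav response to estrogen was 0.25 ± 0.18 in the knockout and −0.28 ± 0.18 in wild type, with a difference between the responses of 0.53 ± 0.25 (95% interval −0.01 to 1.06; limma adjusted p = 0.837). With the replicate set as a term that interval was 0.03 to 1.02 (limma adjusted p = 0.514), and the difference under vehicle had one of −0.86 to −0.16 (limma adjusted p = 0.846). For the same genotype comparison under vehicle, Itgav gave −0.48 ± 0.74 at 1421198_at and −0.48 ± 0.50 at 1432296_a_at. The last pair, 1432679_at and 1432678_at, ran from 17.6 to 142 and from 6.1 to 108, under the filter, and gave −0.17 ± 0.46 and −0.01 ± 0.53 in the fit without a filter.

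Itgb3 (chromosome 11, 104608000 to 104670476), at 1455257_at, had 6575, 5622, 3599 and 5614 in ERaKO-E2-4hr, 5186, 6298, 4707 and 4927 in ERaKO-OVX, 5485, 4888, 5505 and 6068 in WT-E2-4hr, and 5111, 6319, 5010 and 4080 in WT-OVX. The groups lay over each other, with a response to estrogen of −0.00 ± 0.18 in the knockout (95% interval −0.39 to 0.38) and 0.11 ± 0.18 in wild type (95% interval −0.28 to 0.50). A low Itgb3 probe set, 1421511_at, had 551, 499, 21.5 and 429 in ERaKO-E2-4hr, 583, 473, 172 and 463 in ERaKO-OVX, 412, 640, 244 and 308 in WT-E2-4hr, and 495, 608, 266 and 35.9 in WT-OVX. Its 2 lowest arrays, ERaKO-E2-4hr replicate 1 and WT-OVX replicate 2, were both arrays of high spike-in signal and high Actb 3′ to 5′ ratio. Its response to estrogen was −0.61 ± 0.81 in the knockout and 0.59 ± 0.81 in wild type, and the difference between the responses, −1.19 ± 1.14, was made of 0.09 in replicates 3 and 4 alone and −2.48 in replicates 1 and 2 alone. Without ERaKO-E2-4hr replicate 1 that difference was −0.25 ± 0.88, without WT-OVX replicate 2 it was −0.42 ± 1.00, and without all 3 arrays of high spike-in signal 0.43 ± 0.58.

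Src (chromosome 2, 157423906 to 157471838), the kinase of the actin ring, had at 1450918_s_at 644, 633, 567 and 684 in ERaKO-E2-4hr, 754, 509, 494 and 471 in ERaKO-OVX, 340, 918, 576 and 664 in WT-E2-4hr, and 745, 703, 515 and 714 in WT-OVX. The suffix of that name marks a probe set whose probes can match more than 1 transcript. The lowest and the highest of the 16 arrays were replicates 3 and 4 of the same group, WT-E2-4hr. Src changed by 0.20 ± 0.24 with estrogen in the knockout and −0.17 ± 0.24 in wild type, and 1423240_at gave 0.16 ± 0.27 in the knockout and 0.01 ± 0.27 in wild type, none past the threshold. Mitf (chromosome 6, 97807002 to 98021360), the transcription factor, had at 1455214_at 366, 492, 941 and 311 in ERaKO-E2-4hr, 445, 284, 286 and 304 in ERaKO-OVX, 541, 293, 330 and 561 in WT-E2-4hr, and 473, 341, 495 and 674 in WT-OVX. The highest value, 941, was on ERaKO-E2-4hr replicate 1. The Mitf response was 0.55 ± 0.31 in the knockout and −0.21 ± 0.31 in wild type, and the difference between the responses of 0.76 ± 0.44 (limma adjusted p = 0.852) came to 0.25 in replicates 3 and 4 alone and 1.26 in replicates 1 and 2 alone. Without ERaKO-E2-4hr replicate 1 the Mitf response in the knockout was 0.23 ± 0.28 and the difference between the responses 0.44 ± 0.38. Its other probe set, 1422025_at, lay near the filter, between 39.2 and 197 in replicates 3 and 4 and between 5.8 and 97.6 in replicates 1 and 2, and its difference between the responses was 0.05 ± 0.98.

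Over all 5 estrogen and genotype comparisons 0 of the 16 probe sets tested passed a limma adjusted p of 0.05, and so did 0 of the 31526 probe sets tested on the array. The share called was thus 0% for estrogen in the knockout, 0% for estrogen in wild type, 0% for knockout minus wild type under vehicle, 0% for knockout minus wild type after estrogen and 0% for the difference between the estrogen responses. At an unadjusted p under 0.05 there were 1270, 2177, 1066, 1671 and 1858 probe sets in that order, and among the 16 only Itgav under vehicle. With the replicate set as a term there were 1929, 3113, 1796, 2432 and 2918, and among the 16 these were Itgav under vehicle, Ctsk after estrogen, and Ctsk and Itgav for the difference between the responses. Groups of 4 arrays that did not overlap were found for 0 of the 16 probe sets in each pairwise comparison, against 3.88% of all probe sets for estrogen in the knockout, 3.66% for estrogen in wild type, 3.52% for genotype under vehicle and 2.15% for genotype after estrogen. The median response of the 9 genes, with 1 probe set each, was 0.20 in the knockout and −0.12 in wild type, against −0.01 and −0.02 over all probe sets. In the knockout 6 of the 9 genes were higher after estrogen and in wild type 4 of 9, without any past the threshold. The comparisons share groups, so these counts are not separate evidence. Within both replicate sets the sign was the same for 6 of the 9 genes for estrogen in the knockout and 4 in wild type. For genotype it was the same for 8 of 9 under vehicle and 4 of 9 after estrogen. The share of all probe sets with the same sign was not counted. The sign of the difference between the estrogen responses was the same within both replicate sets for 4 of the 9 genes, Ctsk, Itgav, Mitf and Src, and it was positive for each of these. Of the markers of other cells, none called in this comparison, 20 of 20 skeletal muscle genes had a positive difference between the responses (median 2.13), with 20 of 20 higher after estrogen in the knockout and 19 of 20 lower in wild type. The difference between the responses was also positive for 7 of 7 adipocyte genes (median 0.79) and 9 of 10 osteoblast and osteocyte genes (median 0.22). It was negative for 8 of 12 neutrophil lineage genes (median −0.43) and 5 of 8 mast cell and basophil genes (median −0.24). The remaining cell lists had genes of both signs, with medians from −0.03 for megakaryocyte and platelet genes to 0.18 for cartilage genes. Their part in the values of the 9 genes was not tested.

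**Figure D2:**
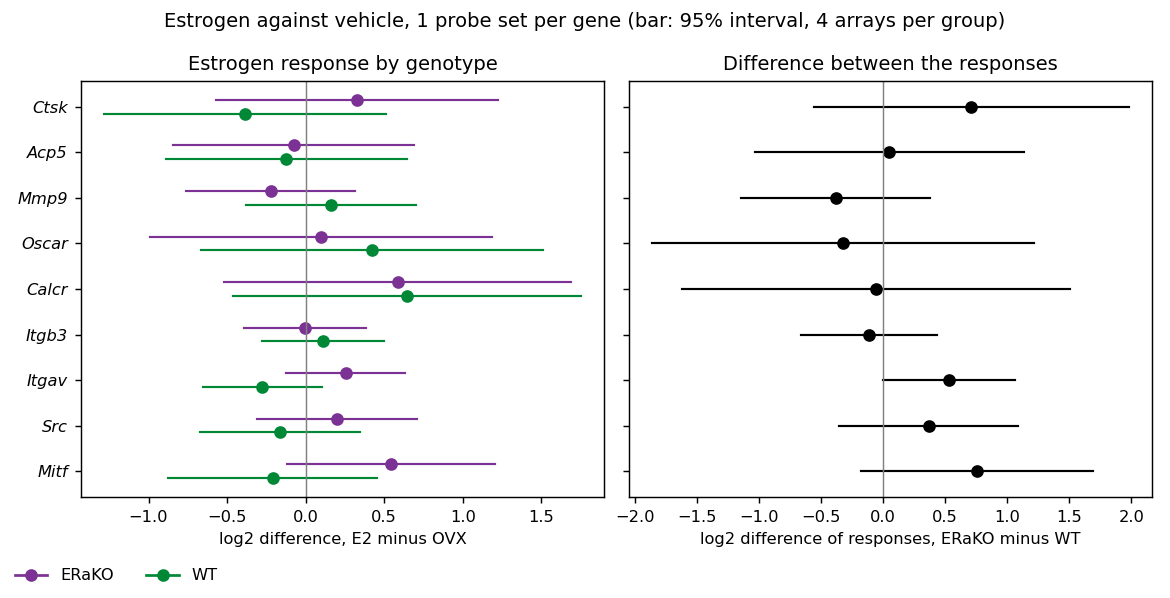
Log2 difference of estrogen minus vehicle for 9 genes in the knockout (purple) and in wild type (green), left, and the knockout minus wild-type difference of these responses, right. Points are limma estimates over 4 arrays per group and bars their 95% intervals. All intervals cross 0, and the interval of Itgav at right runs from −0.01 to 1.06.

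The wider osteoclast pathway was likewise without a call in these comparisons. Of 34 genes for the receptors RANK and Csf1r, their signalling, fusion, the proton pump and the ruffled border, 32 were tested and 0 passed in any of the 5 comparisons, with a median response to estrogen of −0.00 in the knockout and 0.08 in wild type. For knockout minus wild type the median of that list was −0.03 under vehicle and −0.06 after estrogen. The difference between the responses had a median of −0.07 over the list, and it was negative for 20 of the 32 genes and positive for 12.

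Between the replicate sets, with the 4 groups as a term, 9 of the 16 probe sets were higher in replicates 3 and 4 by limma and 0 were lower, where 10.1% of all tested probe sets were called higher and 7.1% lower. The split of the mice was seen in these same arrays, and the tests describe it. The median of the 9 genes was 0.37, against 0.07 over all probe sets, with 4 of 9 genes called. The enzymes Ctsk and Acp5 and the receptors Oscar and Calcr made up these 4. Ctsk averaged 11013 ± 2074 in replicates 3 and 4 and 5357 ± 1505 in replicates 1 and 2 (SD, n = 8 each), a difference of 1.06 ± 0.15 (adjusted p = 0.00020). Acp5, the phosphatase, averaged 17594 ± 2034 in replicates 3 and 4 and 10031 ± 2280 in replicates 1 and 2, a difference of 0.84 ± 0.15 (adjusted p = 0.0015). Oscar averaged 697 ± 58.3 in replicates 3 and 4 and 303 ± 105 in replicates 1 and 2 at 1451710_at, a difference of 1.25 ± 0.20, and its other probe set gave 1.10 ± 0.17 (adjusted p = 0.000628 and 0.000588). Calcr averaged 377 ± 233 in replicates 3 and 4 and 142 ± 38.9 in replicates 1 and 2, and differed by 1.19 ± 0.23 (adjusted p = 0.0025).

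All 8 arrays numbered 3 and 4 were above all 8 arrays numbered 1 and 2 for 3 of the 16 probe sets, those of Acp5 and both of Oscar, against 1.58% of all probe sets in that direction. Acp5 lay between 14605 and 20254, with a median of 18165, in replicates 3 and 4, against 5529 to 12351 with a median of 10757 in replicates 1 and 2. For Ctsk the sets overlapped through 1 pair of arrays, 7226 on WT-E2-4hr replicate 4 and 8327 on ERaKO-E2-4hr replicate 2. Taken group by group the Ctsk difference was even, at 1.15 in ERaKO-E2-4hr, 1.03 in ERaKO-OVX, 1.06 in WT-E2-4hr and 0.99 in WT-OVX. The Calcr difference ran from 0.53 to 1.94 over the groups, that of Acp5 from 0.56 to 1.26, and that of Oscar at 1451710_at from 0.75 to 1.80.

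**Figure D3:**
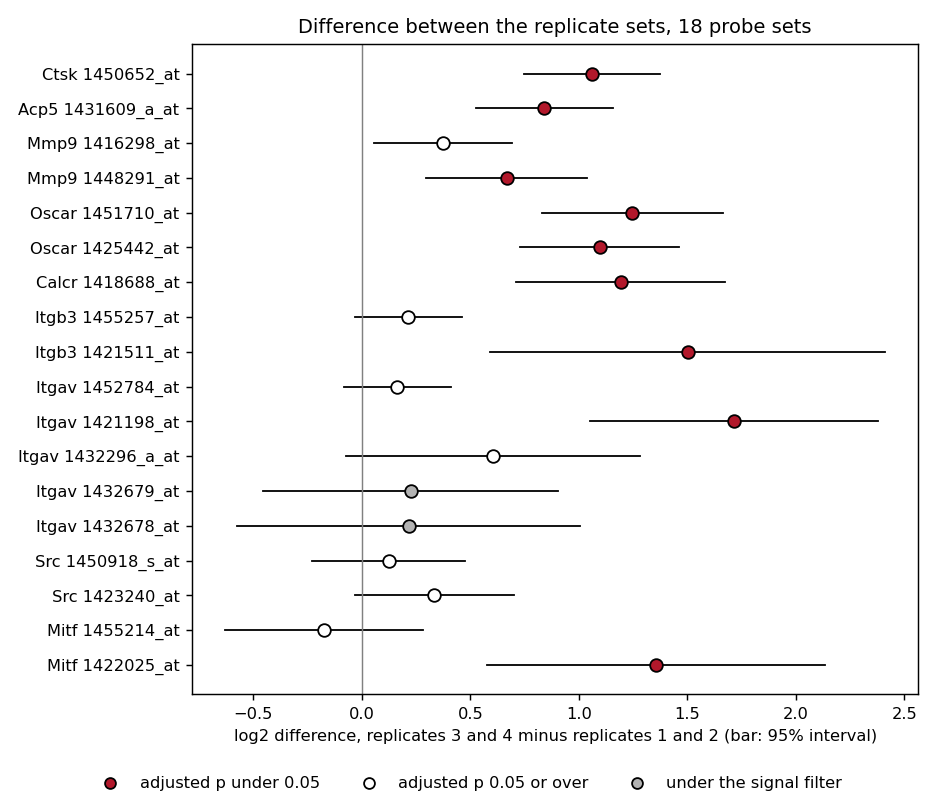
Log2 difference of replicates 3 and 4 minus replicates 1 and 2 for all 18 probe sets of the 9 genes, with limma estimates as points and 95% intervals as bars. Red points passed an adjusted p of 0.05, white points did not and grey points were under the signal filter. Both Oscar probe sets passed, while of each pair for Mitf and Itgb3 the one of lower mean signal did.

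The other 5 genes had several probe sets each, and for Mmp9, Itgav, Itgb3 and Mitf 1 of them was called and the rest were not. The Mmp9 probe set 1448291_at was higher in replicates 3 and 4 by 0.67 ± 0.18 (adjusted p = 0.0164), while 1416298_at differed by 0.37 ± 0.15 (adjusted p = 0.0993) and by 0.73 (adjusted p = 0.0028) after quantile normalization. Itgav at 1421198_at averaged 357 ± 84.8 in replicates 3 and 4 and 113 ± 71.4 in replicates 1 and 2, a difference of 1.71 ± 0.32 (adjusted p = 0.0019), while the high probe set 1452784_at averaged 6804 ± 1025 in replicates 3 and 4 and 6137 ± 1393 in replicates 1 and 2 and differed by 0.16 ± 0.12 (adjusted p = 0.359). Itgb3 showed the same split, with 1.50 ± 0.43 at 1421511_at (adjusted p = 0.0250) and 0.21 ± 0.12 at 1455257_at (adjusted p = 0.225). The call at 1421511_at was lost, at adjusted p up to 0.0550, in 4 of the 16 fits that left out 1 array: WT-OVX replicates 2, 3 and 4 and ERaKO-E2-4hr replicate 3. Mitf was higher by 1.35 ± 0.37 at 1422025_at (adjusted p = 0.0192) and differed by −0.18 ± 0.22 at 1455214_at (adjusted p = 0.616), and Src differed by 0.12 ± 0.17 at 1450918_s_at and 0.33 ± 0.17 at 1423240_at without a call. The arrays of high spike-in signal were all in replicates 1 and 2, and without these 3 the differences were 0.86 for Ctsk (adjusted p = 0.00069), 0.65 for Acp5 (adjusted p = 0.0021), 0.99 for Oscar at 1451710_at (adjusted p = 8.25e-05) and 1.02 for Calcr (adjusted p = 0.0184). Mitf at 1422025_at was then 0.87 and no longer passed (adjusted p = 0.0964), and Itgb3 at 1421511_at was 0.80 (adjusted p = 0.0298).

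Genes of the osteoclast pathway moved the same way: of 32 tested 11 were higher in replicates 3 and 4 and 0 lower, with a median of 0.30. Among them were Atp6v0d2, a subunit of the proton pump that is also needed for fusion, at 1.64 ± 0.15, Ocstamp, a fusion protein, at 1.59 ± 0.24, Snx10, which serves vesicle transport to the ruffled border, at 1.28 ± 0.14, and Nfatc1, the master transcription factor of osteoclasts, at 0.82 ± 0.09. The receptors Tnfrsf11a (RANK) and Csf1r, which precursors carry too, had 0.34 ± 0.16 and 0.13 ± 0.11 and were not called (limma adjusted p = 0.163 and 0.422). Of the 13 other cathepsins 4 were higher and 0 lower, led by Ctsz at 0.77 and Ctsw at 0.77, with a median of 0.21. Of 17 partners of the integrins tested, Itgb1 (1.06) and Ibsp (0.46) were higher and Itgb5 was lower (−0.73).

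Some lists for other cell types differed along the same split. In replicates 3 and 4 all 20 skeletal muscle genes were lower, with a median difference of −4.04, and so were 5 of 7 adipocyte genes, with a median of −1.32. The summed adipocyte signal was 13114 to 24372 in replicates 3 and 4, against 25682 to 91688 in replicates 1 and 2. Of 12 neutrophil lineage genes 6 were lower and 0 higher, and of 10 osteoblast and osteocyte genes 4 were higher and 1 lower, with a median of 0.28. The summed osteoblast and osteocyte signal overlapped, at 90518 to 116341 in replicates 3 and 4, against 91754 to 138091 in replicates 1 and 2. Neutrophil lineage sums were 232595 to 307912 for replicates 3 and 4, against 284391 to 734621 for replicates 1 and 2. Of 10 endothelium genes 3 were higher, and cartilage genes had a median of 0.82 with 1 of 12 called. The macrophage markers were mixed, with 2 of 9 higher and 3 lower, and the megakaryocyte list, whose cells also carry Itgb3, had 0 of 9 higher and 1 lower. Few genes of the blood cell lists were called: 1 of 8 mast cell and basophil genes higher and 0 lower, though the median was −0.21, 2 of 8 erythroid genes lower (median −0.39) and 1 of 9 B lymphocyte genes lower (median −0.43). The signal of the 18S ribosomal RNA control was 842 to 9158 in replicates 3 and 4, against 15614 to 30651 in replicates 1 and 2. The Actb ratio of 3′ over 5′ signal was 1.17 to 1.25 (median 1.21) in replicates 3 and 4, against 1.24 to 3.53 (median 1.43) in replicates 1 and 2. For Gapdh it was 1.04 to 1.14 (median 1.10) in replicates 3 and 4, against 1.08 to 2.58 (median 1.34) in replicates 1 and 2. The part of tissue composition and of these controls in the osteoclast differences was not tested.

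**Figure D4:**
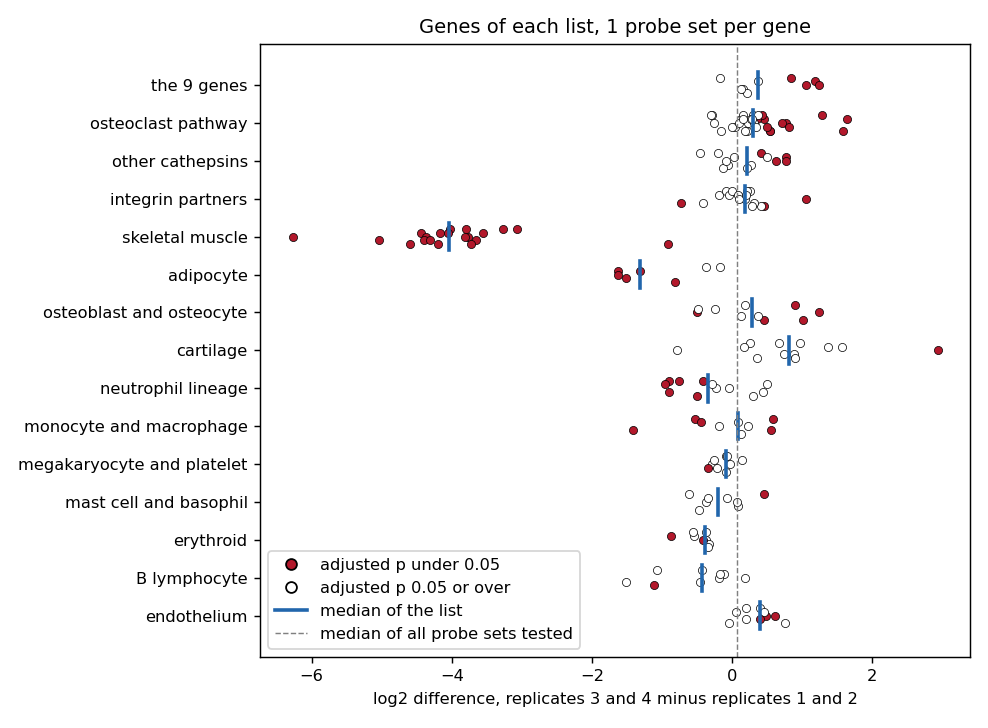
Log2 difference of replicates 3 and 4 minus replicates 1 and 2 for each tested gene of 15 lists, with 1 probe set per gene. Red points passed a limma adjusted p of 0.05, blue bars are list medians and the dashed line is the median of all probe sets, 0.07. The 9 genes have a median of 0.37 and skeletal muscle one of −4.04.

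Within replicates 3 and 4, Oscar and Acp5 had the highest Pearson r with Ctsk among the 9 genes, while by Spearman rho Itgav came before Acp5. Over the 8 arrays of that set, Oscar at 1451710_at had a Pearson r of 0.92 with Ctsk (exact permutation p = 0.0011, adjusted to 0.0161 over 16 relations) and a Spearman rho of 0.95 (exact permutation p = 0.0011, adjusted 0.0183). Without the 2 arrays farthest from the median of Ctsk the r was 0.94. Acp5 had an r of 0.89 (exact permutation p = 0.0020, adjusted 0.0161), which was 0.60 without the 2 farthest arrays, and a rho of 0.74 (exact permutation p = 0.0458, adjusted 0.244), so that relation rested in part on those arrays. In replicates 1 and 2 Oscar at 1451710_at had an r of −0.01 and a rho of 0.07 with Ctsk, and Acp5 an r of 0.57 and a rho of 0.55 (exact permutation p of r adjusted to 0.978 and 0.407). The other Oscar probe set, 1425442_at, which was not among the 16 relations, had an r with Ctsk of 0.85 in replicates 3 and 4 and 0.67 in replicates 1 and 2. The Oscar probe sets had an r with each other of 0.87 in replicates 3 and 4 but 0.07 in replicates 1 and 2, so the value for Oscar in replicates 1 and 2 depends on the probe set. No other of the 16 relations passed after adjustment. Itgav in replicates 3 and 4 had an r of 0.80 and a rho of 0.86 (exact permutation p = 0.0227 and 0.0107, adjusted 0.121 and 0.0857), and its r was 0.39 without the 2 farthest arrays. The 8 arrays of a set span the 4 groups, and the relations were not adjusted for group.

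**Figure D5:**
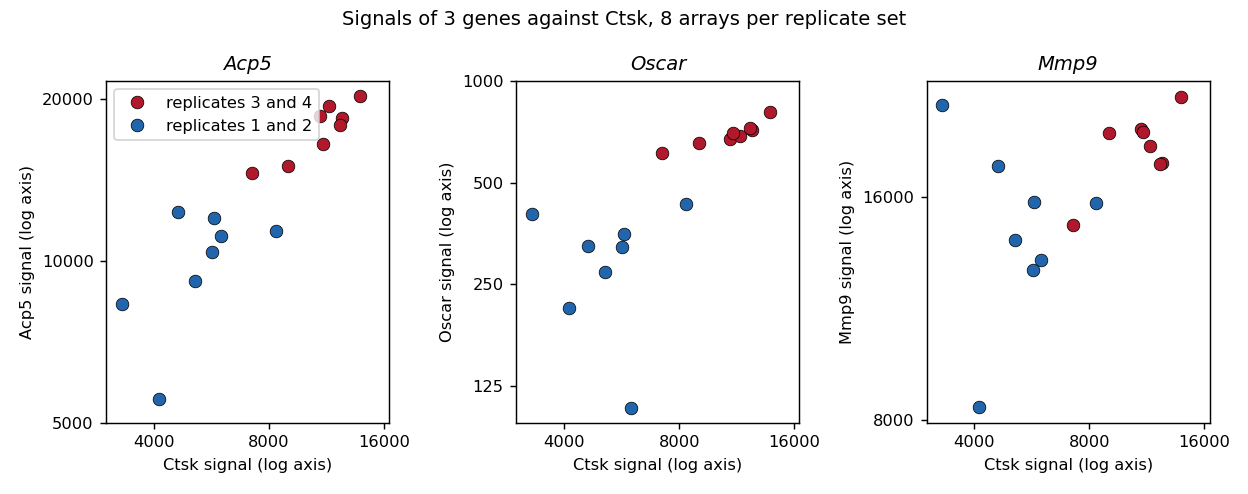
Signals of Acp5, Oscar and Mmp9 (vertical log axes) against Ctsk (horizontal log axis) on 16 arrays, red for replicates 3 and 4 and blue for replicates 1 and 2. Within the red points the Pearson r of log2 values was 0.89 for Acp5, 0.92 for Oscar and 0.70 for Mmp9, and within the blue points 0.57, −0.01 and −0.09. Oscar is shown at 1451710_at, and its other probe set had 0.85 within the red and 0.67 within the blue points.

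Among all other tested probe sets with 1 symbol, those most like Ctsk, by the lower of their r values in the 2 replicate sets, were Sdk2 (0.84), Msi2 (0.82), Myo1e (0.82), Rab13 (0.82) and Hs3st6 (0.82). The median r with Ctsk over all tested probe sets was −0.10 in replicates 3 and 4 and 0.05 in replicates 1 and 2. These 5 were picked as the highest of all probe sets, so their r values are descriptions.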

How the data were processed

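The deposited intensity of each probe set is a linear signal from GCOS, per the submitters' processing notes; its version and background correction are not stated in the sources used here. Since each array had a 2% trimmed mean of 500, no further normalization was applied. The number of arrays, 16, limits the precision. Of 45101 probe sets, 64 controls were left out. Signals were transformed as log2(signal + 16), which understates changes of low signals. The 30% of probe sets with the lowest mean of these log2 values (up to that of a signal of 67.4) were left out, and the other 31526 entered a limma fit (3.58.1, R 4.3.3) with 1 mean per group, 12 residual degrees of freedom and an empirical Bayes variance trend. Two-sided p-values were adjusted over these probe sets (Benjamini-Hochberg) and called under 0.05. The replicate set comparison added the set to the groups. The p-values in the text are from these fits, except where another setting or an exact permutation is named. Within-set values came from fits to 8 arrays. A gene with several probe sets was represented by the one of highest mean where 1 value was needed. On simulated data, the fit with the replicate set as a term was tested for estrogen in wild type. The main fit was tested there for the replicate set comparison alone, by the correlation of its estimates with the simulated differences and not by its calls. The outcomes are not given here.

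The gene list and the probe-set rule, the marker lists, tests and alternatives were chosen with earlier results of these data known. Up to 4 genes of a list, those with the largest difference between replicate sets, were named. Other named genes (Tnfrsf11a and Csf1r) were chosen after their values were seen. Probe sets of different genes were not compared in level. Detection calls were not used. Promoters came from the RefSeq table of GRCm38.p6 by gene symbol. Whether same-numbered mice share more than a number is not given in the labels.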

Additional observations from a re-analysis of the deposited data

Results flagged for a closer look

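Of 72 groups of 4 arrays tested for a member probe set, 5 held an array whose gap to its nearest neighbour, over the group's range, exceeded Dixon's 95% critical value. Chance flags about 1 in 20 groups. The lowest was Itgb3 at 1421511_at on ERaKO-E2-4hr replicate 1, with 21.5 beside 429 to 551 on the other arrays of the group. That array also had a spike-in median of 11606. Src at 1450918_s_at was low on WT-OVX replicate 1, with 515 beside 703 to 745, and high on ERaKO-OVX replicate 3, with 754 beside 471 to 509. Src at 1423240_at was high on WT-E2-4hr replicate 4, with 495 beside 212 to 245. Mitf at 1455214_at was high on ERaKO-OVX replicate 3, with 445 beside 284 to 304.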

How the results depend on the processing

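For the 9 genes with 1 probe set each, 1476 values under other settings (pseudocount 1 or 64, no filter or a 50% filter, quantile normalization, array weights, 1 probe set per gene, fewer arrays, the replicate set or number as a term) were compared with the reported ones. None reversed a called value and none lost a call. Of these values 1424 either stayed called, whatever the size of their shift, or stayed uncalled and within 1 SE. Another 48 uncalled values moved by more than 1 SE, and 106 uncalled values changed sign. The 4 that gained a call were all for Mmp9 at 1416298_at between replicate sets. The member probe sets called higher in replicates 3 and 4 were 9, and 4 with 1 probe set per gene, where only 9 were tested. They were 8 with the 50% filter, where 14 were tested, and 8 without the 3 high spike-in arrays. With quantile normalization or array weights they were 10, and without 1 array 8 to 10. In the estrogen and genotype comparisons the members called stayed at 0 under each setting. Over all probe sets, estrogen in wild type gave 1 call with array weights and 3 with a term for replicate set, and estrogen in the knockout gave 1 with weights, 2 with the set term and 1 when the 3 high spike-in arrays were left out. Leaving out 1 array gave 0 to 1 calls for estrogen in the knockout (1 without ERaKO-E2-4hr replicate 1) and 0 to 1 for genotype after estrogen (1 without WT-E2-4hr replicate 1). The difference between the responses gave 3 calls in replicates 1 and 2 alone. The replicate sets differed at 5413 probe sets, at 2285 of 12735 with 1 probe set per gene, at 2887 without those 3 arrays, and at 3468 to 5639 without 1 array, lowest without WT-OVX replicate 3. Where no construction shows it, the cause was not tested.

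With the replicate number as a replicate block, 0 probe sets passed in each of the 5 estrogen and genotype comparisons, and the difference between the Ctsk responses stayed at 0.71 (limma adjusted p = 0.539). Same-numbered arrays of different groups correlated in their deviations from the group means by 0.0947 to 0.447 (median 0.234), differently numbered ones of the same set by −0.018 to 0.482 (median 0.295) and arrays of the other set by −0.535 to −0.011 (median −0.258), so the mice share a set more than a number and were not treated as paired.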
